A study of Mus musculus with 6 samples.

Results

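The cyclins and kinases that carry a cell through G1, together with the retinoblastoma protein on which they act, were followed in mouse vascular smooth muscle cells that overexpressed the microRNA miR-128. The members were fixed by gene symbol, as Ccnd1, Ccnd2, Ccnd3, Ccne1, Ccne2, Cdk2, Cdk4, Cdk6 and Rb1, and every array probe annotated to one of these symbols was taken. This gave 16 of the 25697 probes on the array, for 8 of the 9 genes (of 16593 genes with a probe); Cdk4 had no annotated probe and is not analysed here. Of the 16 probes, 15 passed the filter, which asked for 2 or more of the 6 arrays with a detection p below 0.05, as did 13236 of all probes.

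Primary vascular smooth muscle cells of C57BL/6J mice, aged 8 weeks, received lentivirus, were kept in puromycin for 2 days and gave RNA after 5 days, in every group. The mir128 group (2 arrays) overexpressed miR-128, while shScr1 and shScr2 (2 arrays each) both carried scrambled miRNA and served as controls. The replicates, named A and B, are biological replicates per the series' design text. Total RNA was measured on Illumina bead arrays, which report 1 brightness per probe, and all levels below are log2 intensities after background correction and quantile normalization.

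D cyclins are made in response to growth factors, bind Cdk4 or Cdk6, and start the phosphorylation of the retinoblastoma protein, Rb1. Phosphorylated Rb1 releases E2F transcription factors, which switch on genes of DNA replication and also the E cyclins. E cyclins bind Cdk2 and complete the phosphorylation of Rb1 at the entry to S phase. Vascular smooth muscle cells rest in the healthy artery and enter this cycle after injury or in culture.

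The overexpressed agent is given in the labels as miR-128, with no arm or locus named. RefSeq lists the mature mmu-miR-128-3p from 2 loci of mouse build GRCm38.p6, chr1:128202404-128202424 on the plus strand and chr9:112118644-112118664 on the minus strand. It is shown here, with bases 2 to 8 (the seed) in capitals, as the sequence the cells were designed to overproduce if the 3p arm is meant.
mmu-miR-128-3p: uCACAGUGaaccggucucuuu
Both loci give the same mature sequence.

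RefSeq promoter windows, from 250 bases before to 50 bases after a gene's start, were available for 5 of the 9 genes. The E2F motif was searched on both strands in a loose form, TTTNNCGC, where N is any base. It occurred in 1698 of 32851 such windows of mouse build GRCm38.p6 (5.17%), and in 2 of the 6 windows of Ccnd3 (which has 2), Ccne1, Cdk2, Cdk4 and Cdk6. The window of Cdk2 is shown because the Cdk2 probes were the largest block of probes that lay lower with miR-128. It covers chr10:128705002-128705301, minus strand, with the match in capitals; it begins at position -140 relative to the start and reads as the motif on the opposite strand.
Cdk2: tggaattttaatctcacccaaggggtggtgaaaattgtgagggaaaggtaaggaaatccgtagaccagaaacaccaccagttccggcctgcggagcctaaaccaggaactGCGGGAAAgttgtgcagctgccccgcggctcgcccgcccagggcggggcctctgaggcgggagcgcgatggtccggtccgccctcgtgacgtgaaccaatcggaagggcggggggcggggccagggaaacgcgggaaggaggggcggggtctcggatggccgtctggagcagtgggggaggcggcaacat
The other window with this loose form of the motif was that of Cdk6, where the match read TTTTACGC. A match of letters is a description of the window and says nothing of whether a factor binds there.

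mir128 replicate A stood apart in brightness: it had 13277 detected probes and an upper quartile of 373 intensity units. The other 5 arrays had 11589 to 12343 detected probes and upper quartiles of 201 to 252. The difference between replicates A and B had an SD over all tested probes of 0.544 in mir128, while it was 0.291 for shScr1 and 0.319 for shScr2. Of 9 smooth muscle markers on the array, both miR-128 arrays detected 7, and all 4 scrambled arrays 5, and Cnn1, the calponin gene, was detected on none. Their summed level was 27280 to 34841 in mir128 and 12811 to 22969 in the scrambled arrays. Of the markers on the array, 4 of 7 endothelial, 2 of 5 leukocyte and 4 of 4 adipocyte genes were detected on no array, and among them Cdh5, Vwf, Ptprc and Adipoq. Both miR-128 arrays detected 3 of the 5 leukocyte genes, and all 4 scrambled arrays detected 1. For the 7 endothelial genes these counts were 1 and 1. Of 6 fibroblast markers on the array, both miR-128 arrays detected 5, and all 4 scrambled arrays 5. Their summed level was 1269 to 1635 in mir128 and 539 to 1698 in the scrambled arrays. That of 5 leukocyte markers was 432 to 467 and 496 to 674, and that of 7 endothelial markers was 163 to 181 and 173 to 199, in mir128 and in the scrambled arrays each time. The part of these marker levels in the results below was not tested.

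The main comparison asked how the members differed between miR-128 cells and both scrambled groups. Of the 15 tested probes, 2 were higher (Ccnd2 and 1 probe of Ccnd3) and 3 were lower (Ccne2 and 2 probes of Cdk2), while 10 did not pass. Over all 13236 probes, 13.4% were called higher and 13.1% lower, so the members' share, 5 of 15, is to be read against 26.5% called in either direction. The median log2 change was -0.02 over the members and -0.02 over all tested probes. The test was limma's moderated statistic, two-sided, with p adjusted by Benjamini-Hochberg over all tested probes and a threshold of 0.05. The fit had 1 mean for each of the 3 groups and, for each probe, 1 spread shared by all groups. Replicates differed more in mir128 than in the scrambled groups. The SE, interval and p can therefore understate the spread of the miR-128 arrays. Both miR-128 arrays lay above all 4 scrambled arrays for 2 member probes and below them for 5, against 22.8% and 23.4% of all tested probes (46.2% in either direction). With each array scaled to a common median in place of quantile normalization, the median change of all probes was 0.18. The share of higher probes among the calls was then 71.4%, against 50.6% in the main fit.

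**Figure D1:**
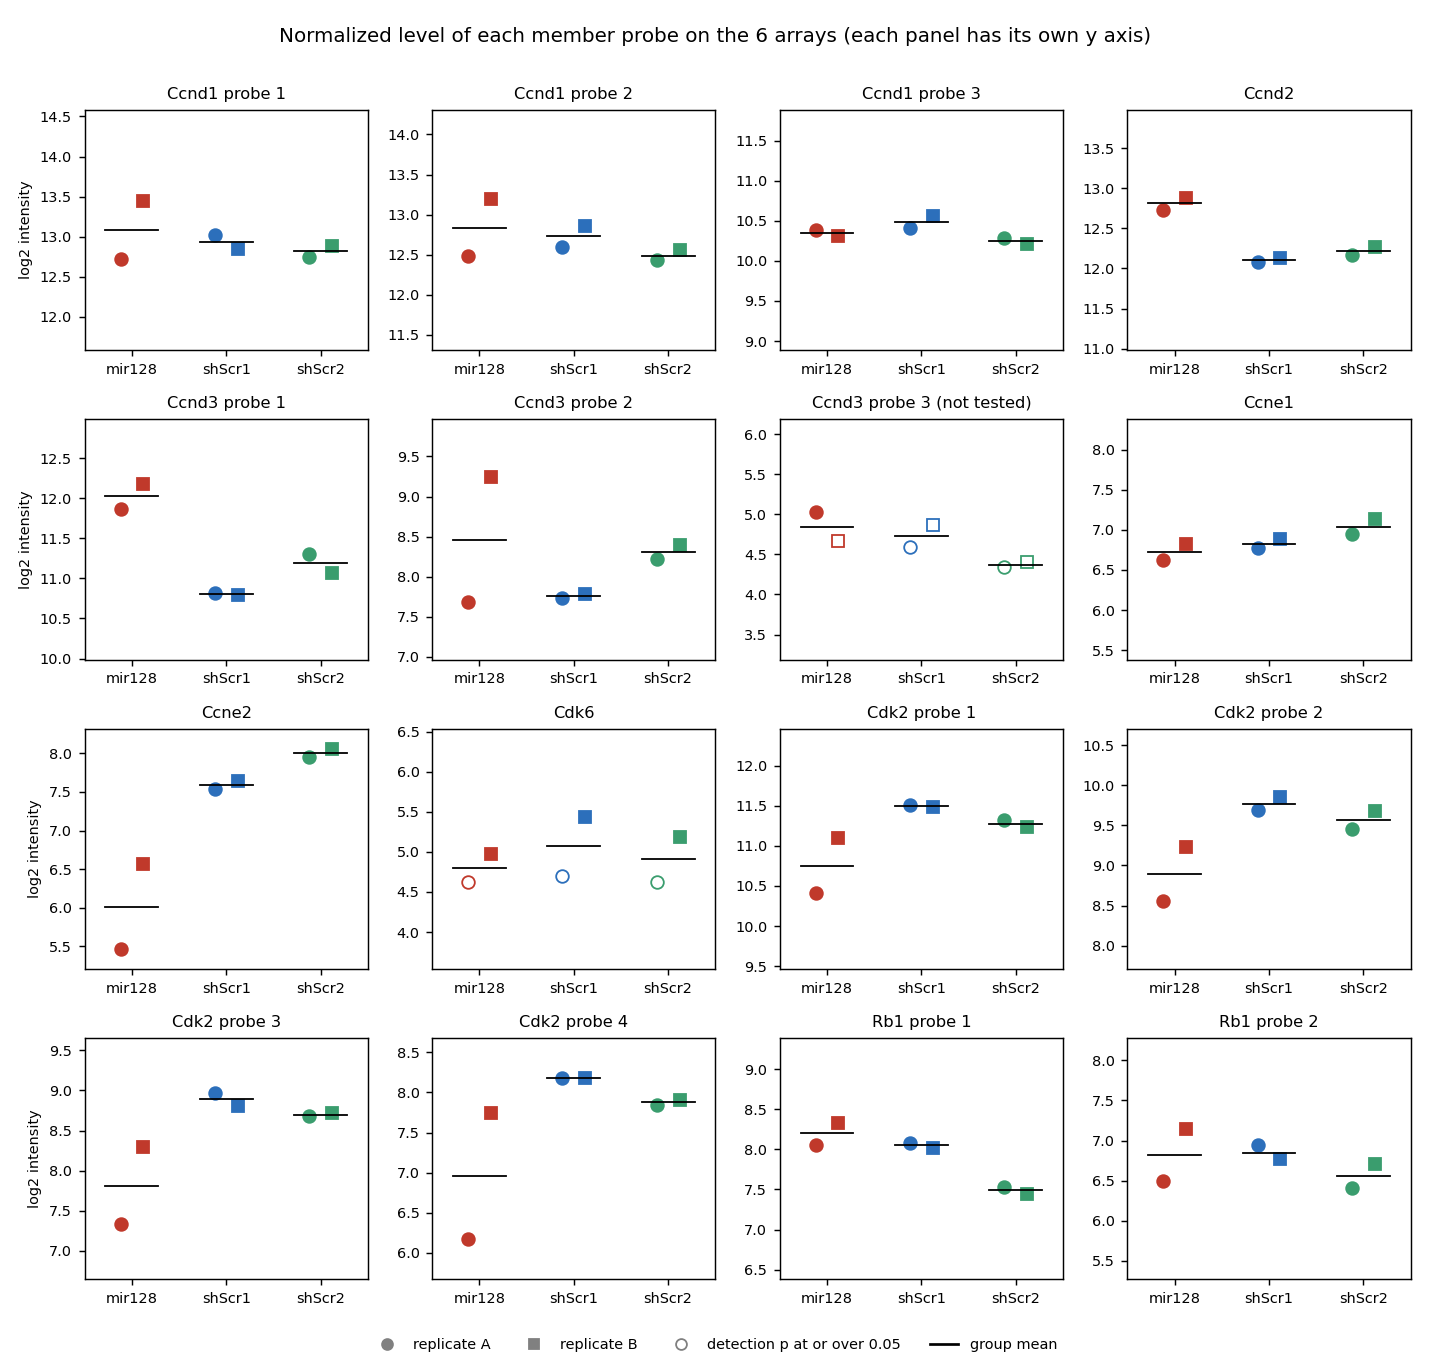
Normalized log2 intensity of each of the 16 member probes (y axis, its own for each panel; probes of a gene numbered from the brightest) in the mir128, shScr1 and shScr2 groups, with replicate A as circles, replicate B as squares, group means as lines and open symbols where the probe was not detected. Ccnd2 and Ccnd3 probe 1 sit higher on both miR-128 arrays than on all scrambled arrays, Ccne2 and the 4 Cdk2 probes sit lower, and the other probes overlap.

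Among the D cyclins, Ccnd2 and Ccnd3 rose and Ccnd1 did not pass. Ccnd2, cyclin D2, had 1 probe (ILMN_2700166), with log2 levels of 12.73 and 12.88 on mir128 A and B, against 12.08 and 12.13 on shScr1 A and B and 12.17 and 12.27 on shScr2 A and B. Both miR-128 arrays were above every scrambled array, by at least 0.46. The difference was 1.56-fold, a log2 change of 0.64 ± 0.14 (here and below ± the SE of limma), with an adjusted p = 0.0199. The call was lost when any 1 scrambled array was left out, with log2 changes of 0.62 to 0.66. Calls over all tested probes fell in those fits too.

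Ccnd3, cyclin D3, had 3 probes, which differed in what they showed. The brightest (ILMN_3131063) was at 11.87 and 12.18 on mir128 A and B, against 10.82 and 10.79 on shScr1 A and B and 11.31 and 11.07 on shScr2 A and B. The groups did not overlap, and the gap between the lower miR-128 array and the highest scrambled array was 0.56. It was 2.04-fold higher (log2 change 1.03 ± 0.16; adjusted p = 0.00728 in limma), and this call held under each of the 15 alternatives, at log2 changes of 0.88 to 1.20. The second probe (ILMN_1246473) was at 7.69 and 9.24 on mir128 A and B, against 7.73, 7.79, 8.22 and 8.40 on the scrambled arrays. Replicate A thus sat below the scrambled arrays and replicate B above them. This probe did not pass (0.43 ± 0.40; adjusted p = 0.461), and it was at 1.23 without mir128 replicate A (adjusted p = 0.00521) and at -0.35 without replicate B. The third probe (ILMN_2661849) was detected only on mir128 A and was not tested.

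Ccnd1, cyclin D1, did not pass with any of its 3 probes. The brightest (ILMN_1221503) was at 12.72 and 13.45 on mir128 A and B, against 13.02 and 12.85 on shScr1 A and B and 12.75 and 12.88 on shScr2 A and B. The second (ILMN_2601471) was at 12.48 and 13.19 in mir128, against 12.43 to 12.86 in the scrambled arrays. On both, mir128 B was the highest array, and mir128 A lay among or below the scrambled arrays. Their log2 changes were 0.21 ± 0.23 (95% interval -0.33 to 0.75; adjusted p = 0.524) and 0.22 ± 0.23 (-0.32 to 0.76; adjusted p = 0.512). Without mir128 replicate A they were at 0.62 and 0.60 (adjusted p = 0.0333 and 0.0466), and without replicate B at -0.15 and -0.13. The third, dimmer probe (ILMN_2669793) was at 10.38 and 10.31 in mir128, against 10.21 to 10.56 in the scrambled arrays. Its change was -0.02 ± 0.14, with a 95% interval of -0.35 to 0.32, and the sign turned with arrays scaled to a common median (0.14).

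Of the E cyclins, partners of Cdk2, Ccne2 fell and Ccne1 did not pass. Ccne2, cyclin E2, had 1 probe (ILMN_1245789). Its log2 level was 5.46 and 6.56 on mir128 A and B, against 7.54 and 7.64 on shScr1 A and B and 7.96 and 8.06 on shScr2 A and B. Both miR-128 arrays were below every scrambled array, with a gap of 0.98, although the miR-128 arrays had an SD of 0.78 between them, so that the size is imprecise. Ccne2 was 3.46-fold lower (log2 change -1.79 ± 0.30; adjusted p = 0.00839 in limma), and the call held under each of the 15 alternatives. Its size moved to -0.97 without background correction and to -0.46 on the authors' processed values, and it was -1.25 without mir128 replicate A and -2.36 without replicate B. Before any correction its intensity was 172 and 184 in mir128, against 265 to 296 in the scrambled arrays.

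Ccne1, cyclin E1 (ILMN_2716497), was at 6.62 and 6.82 on mir128 A and B, against 6.77 and 6.88 on shScr1 A and B and 6.95 and 7.14 on shScr2 A and B. mir128 B lay within the scrambled range. Its change of -0.22 ± 0.15 did not pass (95% interval -0.58 to 0.15; adjusted p = 0.333), and it was at 0.12 with arrays scaled to a common median. The difference between the changes of the E cyclins was not tested.

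Among the kinases, all 4 probes of Cdk2, the partner of the E cyclins, were lower on both miR-128 arrays than on all scrambled arrays, and 2 of them passed the test. The probe ILMN_2770759 was at 7.33 and 8.29 on mir128 A and B, against 8.97 and 8.81 on shScr1 A and B and 8.68 and 8.72 on shScr2 A and B. It was 1.98-fold lower (log2 change -0.98 ± 0.27; adjusted p = 0.0388 in limma). The probe ILMN_2717613 was at 8.56 and 9.23 in mir128, against 9.69 and 9.85 in shScr1 and 9.46 and 9.68 in shScr2. It was 1.71-fold lower (-0.77 ± 0.22; adjusted p = 0.0430). The gap between the groups was 0.38 for the first of these probes and 0.23 for the second.

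The other Cdk2 probes did not pass in the main comparison. The brightest (ILMN_1233064) was at 10.41 and 11.10 on mir128 A and B, against 11.51 and 11.49 on shScr1 A and B and 11.32 and 11.23 on shScr2 A and B, a change of -0.63 ± 0.21 (adjusted p = 0.0691). It passed without background correction (-0.61; adjusted p = 0.0401), with a variance trend and robust prior (0.0282) and without mir128 replicate B (-0.98; 0.00671), and was at -0.30 without mir128 replicate A. The dimmest (ILMN_1250942) was at 6.17 and 7.75 in mir128, against 8.18 and 8.18 in shScr1 and 7.84 and 7.91 in shScr2, a change of -1.07 ± 0.40 (adjusted p = 0.0934). It passed without mir128 replicate B (-1.87; 0.00214) and was at -0.28 without mir128 replicate A. In each of the 4 probes mir128 A was the lowest array, by 0.67 to 1.58 below mir128 B. The probes report on 1 gene and are not replicates of each other; the array's annotation ties 3 of them to 1 Cdk2 transcript and ILMN_2770759 to another.

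The 2 Cdk2 calls depended on the arrays and on the filter. Without mir128 replicate A they were at -0.51 (adjusted p = 0.0503) and -0.44 (0.0962), for ILMN_2770759 and ILMN_2717613 in that order. Without any 1 of the 4 scrambled arrays neither passed, at log2 changes of -1.02 to -0.94 and -0.83 to -0.71. Calls over all tested probes fell there too. Without a detection filter their adjusted p was 0.0793 and 0.0742, and on the authors' processed values they passed at -0.45 and -0.50. mir128 A, on which Cdk2 was lowest, was also the brightest array. Before correction, ILMN_2770759 had an intensity of 369 and 386 in mir128, against 409 to 591 in the scrambled arrays, and ILMN_2717613 had 697 and 654, against 699 to 910. Neither overlapped, while the uncalled ILMN_1233064 did (2117 and 2132 in mir128, against 2109 to 3019). The uncalled ILMN_1250942 overlapped too (222 and 296 in mir128, against 260 to 377). The part of that brightness in the Cdk2 difference was not tested. Scaled to a common median instead, ILMN_2717613 did not pass (-0.55, adjusted p = 0.0635 in limma), while ILMN_2770759 did (-0.72, adjusted p = 0.0458).

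Cdk6, which binds D cyclins, had 1 probe near background (ILMN_1259714). It was at 4.63 and 4.97 on mir128 A and B, against 4.70 and 5.44 on shScr1 A and B and 4.63 and 5.18 on shScr2 A and B. It was detected on replicate B of each group and on no replicate A. Its change of -0.19 ± 0.27 was not called (95% interval -0.83 to 0.45, adjusted p = 0.640 in limma), and a fall may not show this near background.

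Rb1, the pocket protein that these kinases phosphorylate, did not pass with either of its 2 probes. The brighter (ILMN_2861644) was at 8.06 and 8.33 on mir128 A and B, against 8.08 and 8.02 on shScr1 A and B and 7.53 and 7.44 on shScr2 A and B. The miR-128 arrays were above shScr2 and overlapped shScr1, with a change of 0.43 ± 0.15 (adjusted p = 0.0775). It passed under the common-median scaling (0.73; adjusted p = 0.0317), without background correction (0.31; 0.0439), on the authors' processed values (0.17; 0.0457) and without mir128 replicate A (0.58; 0.0308). The dimmer (ILMN_2679619) was at 6.50 and 7.14 in mir128, against 6.41 to 6.94 in the scrambled arrays, and its change was 0.11 ± 0.22 (95% interval -0.41 to 0.64; adjusted p = 0.738). It was at -0.21 without mir128 replicate B.

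**Figure D2:**
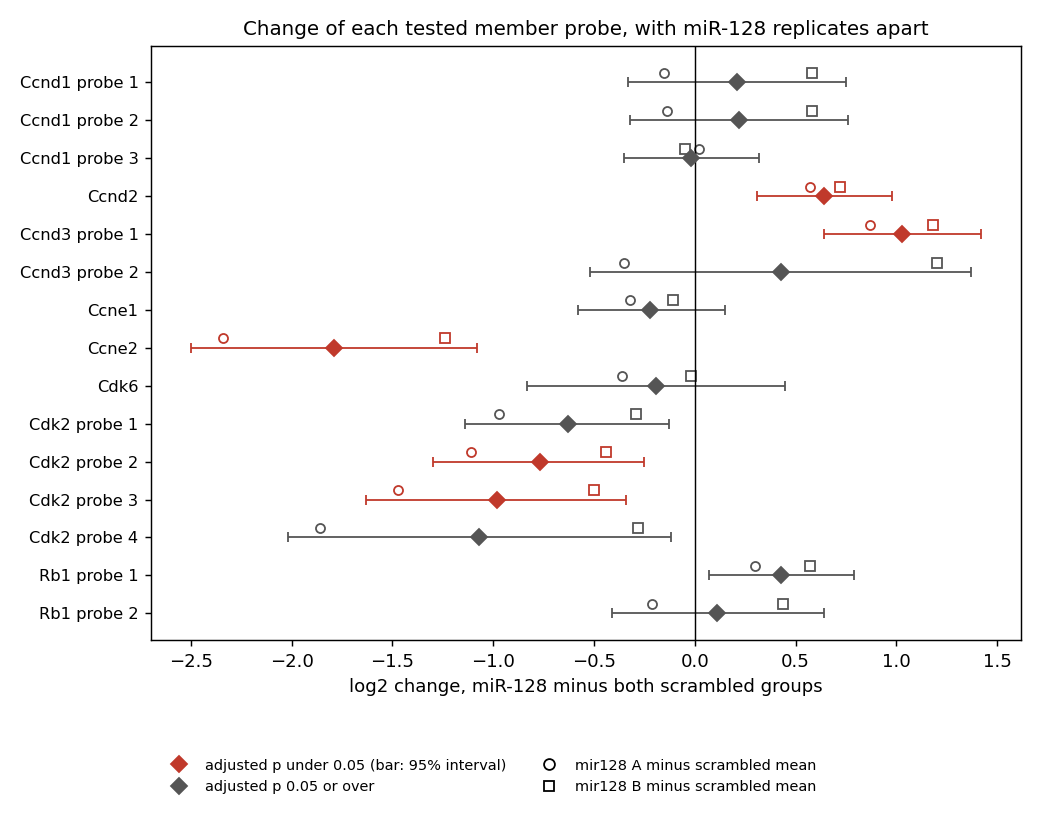
Log2 change of each of the 15 tested member probes (x axis), miR-128 minus both scrambled groups, with its 95% interval; red marks an adjusted p under 0.05, and open circles and squares give mir128 replicates A and B apart, each minus the mean of the 4 scrambled arrays. Ccnd2, Ccnd3 probe 1, Ccne2 and all Cdk2 probes have both replicates on the same side of 0, as do Ccne1, Cdk6 and Rb1 probe 1. Replicates A and B fall on opposite sides for all Ccnd1 probes, Rb1 probe 2 and Ccnd3 probe 2 (-0.35 and 1.20 for the last).

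Taken apart, the miR-128 replicates gave different sizes for most members. Relative to the mean of the 4 scrambled arrays, Ccnd2 was at 0.57 in replicate A and 0.72 in replicate B, and Ccnd3 ILMN_3131063 was at 0.87 and 1.18. Ccne2 was at -2.34 in replicate A and -1.24 in replicate B. The Cdk2 probes ranged from -1.86 to -0.97 in replicate A and from -0.50 to -0.28 in replicate B. Falls were thus deeper in replicate A, and both rises were larger in replicate B. The 2 brightest Ccnd1 probes, Ccnd3 ILMN_1246473 and Rb1 ILMN_2679619 were below the scrambled mean in replicate A and above it in replicate B.

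The comparisons with each scrambled group asked whether the result held for either control; they share the miR-128 arrays, and their values are given side by side. Of the 15 tested probes, 3 passed against shScr1 (2 higher, 1 lower) and 3 against shScr2 (2 higher, 1 lower), where 20.5% and 18.6% of all tested probes were called. By direction, 10.3% of all tested probes were higher and 10.2% lower against shScr1, and 9.66% and 8.91% against shScr2. Ccnd3 ILMN_3131063 was higher by 1.22 ± 0.19 against shScr1 (adjusted p = 0.00870 in limma) and by 0.83 ± 0.19 against shScr2 (0.0284). Ccne2 was lower than in shScr1, by a log2 change of -1.58 ± 0.34 (adjusted p = 0.0248), and lower than in shScr2, by -2.00 ± 0.34 (0.0125). With either array of a control left out, no member probe passed against that control, so the calls of Ccnd3 and Ccne2 were lost there too. The share of all tested probes called against that control was not counted in those fits.

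The other call differed between the controls. Ccnd2 exceeded shScr1 by 0.70 ± 0.16 (adjusted p = 0.0295) and was at 0.59 ± 0.16 relative to shScr2 (0.0512). Rb1 ILMN_2861644 was at 0.15 ± 0.17 relative to shScr1 (adjusted p = 0.572) and exceeded shScr2 by 0.71 ± 0.17 (0.0355). The tested Cdk2 probes were at -1.22 to -0.75 against shScr1 and -0.92 to -0.52 against shScr2, with none past the threshold in limma; unadjusted p was under 0.05 for 4 and 2 of them. With the replicate letter as a block, ILMN_2717613 of Cdk2 passed against shScr1 (adjusted p = 0.0366, against 0.0544 without the block).

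**Figure D3:**
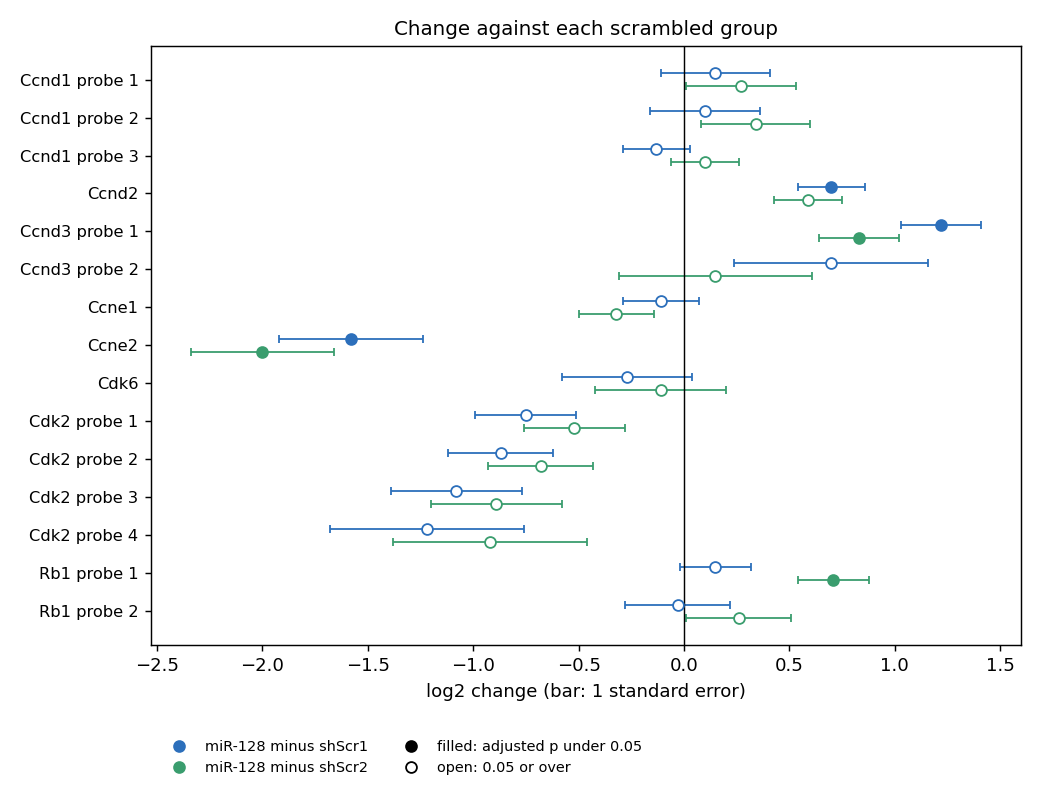
Log2 change of each tested member probe (x axis) as miR-128 minus shScr1 in blue and miR-128 minus shScr2 in green, with bars of 1 standard error; filled symbols have an adjusted p under 0.05. Ccnd3 probe 1 and Ccne2 are filled against both controls, Ccnd2 against shScr1 and Rb1 probe 1 against shScr2.

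Set against each other as shScr2 minus shScr1, the scrambled groups gave 0 calls among the 15 member probes in limma, with 0.0831% of all tested probes called (0.0227% higher, 0.0604% lower). At an unadjusted p under 0.05 there was 1 member, Rb1 ILMN_2861644, and the share of all tested probes at that threshold was not counted. This probe was at 7.49 ± 0.06 in shScr2 and 8.05 ± 0.04 in shScr1 (SD, n = 2 each), a log2 change of -0.56 ± 0.17 (adjusted p = 0.325 in limma). In size it exceeded the 0.43 of the same probe in the main comparison. Ccne2 was at 8.01 ± 0.07 in shScr2 and 7.59 ± 0.07 in shScr1, a change of 0.43 ± 0.34 (adjusted p = 0.751 in limma).

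The genes around the members were read from lists, with the brightest tested probe of each gene. Over all 9010 genes so measured, 14.7% were called higher and 12.8% lower, and the median log2 change was 0.00. Genes known to be switched on by E2F at the entry to S phase had 14 of 18 measured members lower and 0 higher, with 4 that did not pass and a median of -1.17. Ccna2, cyclin A2, among the 14, and Gmnn, geminin, among the 4, were detected on 0 miR-128 arrays and 2 scrambled arrays, so they entered only through the scrambled arrays. With detection asked for on all 6 arrays, 13 of 16 were lower, with a median of -1.20. On the authors' values 10 of 18 were lower, with a median of -0.69. Cdc6, which loads the replicative helicase, was at 6.87 and 7.52 on mir128 A and B, against 8.69 to 8.90 on the scrambled arrays (3.05-fold lower; adjusted p = 0.00385 in limma). Tk1, thymidine kinase, was at 8.33 and 9.30, against 10.67 to 10.85 (3.87-fold lower; 0.00469), and Rrm2, a ribonucleotide reductase subunit, was at 7.37 and 8.05, against 8.77 to 9.50 (2.66-fold lower; 0.00620). The list median was -1.62 in mir128 A and -0.75 in mir128 B, so A was the lower one, as for Cdk2 and Ccne2. Fewer of these genes passed without any 1 of the 4 scrambled arrays, where calls over all tested probes fell too. The list median was then -1.18 to -1.14.

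Cyclins and kinases of G2 and mitosis were lower in 6 of 6 measured members, with a median of -1.21. Ccna2 is counted here as well; its levels of 4.58 and 4.44 in mir128, against 4.62 and 4.82 in shScr1 and 5.56 and 5.41 in shScr2, gave a change of -0.21 against shScr1 (adjusted p = 0.418 in limma). With detection asked for on all 6 arrays, 5 of 5 were lower. Cdk1, the mitotic kinase, was at 10.08 and 10.92 on mir128 A and B, against 11.39 to 11.79 on the scrambled arrays (2.14-fold lower; adjusted p = 0.0196 in limma). Aurka, Aurora kinase A, was 3.16-fold lower (0.0209), and Cdc20, an activator of the anaphase-promoting complex, was 3.68-fold lower (0.0217). Without any 1 of the 4 scrambled arrays none passed, and calls over all tested probes fell too, although the list median stayed at -1.33 to -1.21. From whole cultures, fewer cycling cells and less of an mRNA per cell cannot be told apart.

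CDK inhibitors moved to both sides, with 2 of 6 measured members higher, 1 lower and a median of -0.23 (0.03 under the common-median scaling). Cdkn1a, the inhibitor p21 of Cdk2, was at 13 and 12.85 on mir128 A and B, against 11.12 to 11.48 on the scrambled arrays (3.04-fold higher; adjusted p = 0.00139 in limma). Cdkn2b, the inhibitor p15 of Cdk4 and Cdk6, was at 8.95 and 8.39, against 6.47 to 7 (3.76-fold higher; 0.00221). Cdkn2d, the inhibitor p19 of the same kinases, was at 5.78 and 6.90, against 7.14 to 7.53 (2.11-fold lower; 0.0454). The fall of Cdkn2d was the call lost with arrays scaled to a common median, on the authors' values and without a detection filter. Each of these left 0 inhibitors lower. The call was also lost without mir128 A or any 1 of the scrambled arrays. Calls over all tested probes fell too when a scrambled array was left out. Without mir128 B, 3 inhibitors were lower.

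Pocket proteins and E2F partners had 1 of 10 measured members lower and 0 higher. The lower one was E2f4, an E2F that acts mainly as a repressor with pocket proteins, at 7.31 and 6.67 on mir128 A and B, against 7.80 to 8.17 (2.00-fold lower; adjusted p = 0.0214 in limma). Rbl1, the pocket protein p107, was at a log2 change of -0.92 (0.0517), and E2f5 was at 0.52 (0.0526). Of genes for CDK activation and cyclin turnover, 4 of 13 were lower and 0 higher. Among the lower genes, Cks2, a CDK subunit, was detected on 0 miR-128 arrays and 2 scrambled arrays, entered only through the scrambled arrays, and was at -0.36 against shScr1 (adjusted p = 0.203 in limma). Cdc25a, the phosphatase that activates Cdk2, was at 7.42 and 7.92 on mir128 A and B, against 8.67 to 8.80 (2.13-fold lower; 0.00852). Usp28, a deubiquitinase, was 2.10-fold lower (0.00874) and Skp2, which marks p27 for destruction, was 1.69-fold lower (0.0408). Cyclins and CDKs with roles outside G1 had 3 of 13 higher and 2 lower. Ccnl1 was 1.60-fold lower (0.0203), but mainly against 1 control. It was at -1.10 against shScr1 (adjusted p = 0.00914 in limma) and at -0.26 against shScr2 (0.336). Cdk10 was 2.46-fold lower (0.0215), and Cdk11b was 1.58-fold higher (0.0243).

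**Figure D4:**
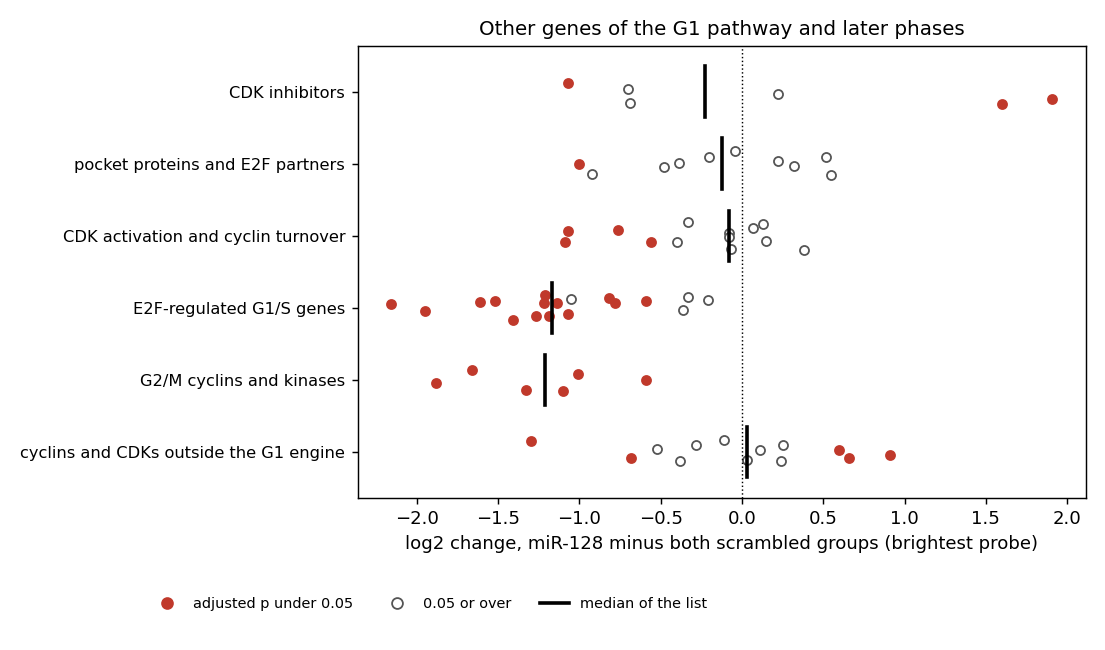
Log2 change of each measured gene (x axis, brightest probe, miR-128 minus both scrambled groups) in 6 lists around the members, with red points past the adjusted p of 0.05, open points not past it and a black bar at each list's median. The E2F-regulated and G2/M lists lie below 0 in all their members, with medians of -1.17 and -1.21, while the other lists spread over both sides.

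The genes whose levels ran most like those of the members were ranked by Pearson's r over the 6 arrays, as a description; the points are the same 6 arrays for every gene. For Ccnd3 ILMN_3131063 they were Sdc2 (syndecan 2, r = 0.998), Net1, Msrb2, Phc2 and Anxa3 (lowest r = 0.996). For Ccne2 they were Kdm8 (r = 0.999), Fkbp2, Nup133, Dtwd1 and Stoml2 (lowest r = 0.997). Of these, Sdc2 was at a log2 change of 1.25 and Kdm8 at -1.46 in the main comparison (adjusted p = 0.00385 and 0.00896 in limma). Msrb2, Anxa3, Dtwd1 and Stoml2 passed with smaller changes (0.86, 0.57, -0.74 and -0.96). Net1, Phc2, Fkbp2 and Nup133 did not pass (0.44, 0.34, -0.50 and -0.49).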

How the data were processed

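The deposited table held 1 linear intensity and 1 detection p-value per probe and array, per the file headers, for 25697 probes; it is not normalized. A second deposited table held values processed by the authors, log2-like from their range (median 7.77 on each array), with transform and normalization not given in the sources used here; it served as an alternative. GenomeStudio 2011.1, lumi and limma appear in the submitters' processing notes, with no role given. Intensities were normalized with neqc of limma 3.58.1 (R 4.3.3; offset 16), and limma's model was fitted over the 13236 probes past the filter (3 residual degrees of freedom, prior 3.63). Symbols came from the platform annotation, for 23978 probes.

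The members and lists were chosen with earlier results of these data known. All members are named, with the 3 smallest adjusted p of each list and the 5 most alike genes; Ccna2, Gmnn and Cks2 were named after their values were seen. On simulated data of 13236 probes for the main comparison, 0% of planted changes were recovered at a log2 size of 0.5, 32% at 1, 70% at 1.5 and 88% at 2. The simulation planted 50 changes at each size and gave 101 calls, against 3509 in the data. Its adjusted p was thus the stricter one. These rates therefore cannot say how often changes of the size seen in Ccnd1 or Ccne1 would be called. The differences between replicates A and B correlated across probes at 0.111 to 0.157 between the groups (3 of 3 pairs over 0.1), so the letters were also used as a block. The alternatives are given at the end. Precision is limited by the number of arrays.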

Additional observations from a re-analysis of the deposited data

How the results depend on the processing

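The count of higher member probes in the main comparison was 2 and ranged from 1 to 6 when 1 array was left out; the count of lower ones was 3 and ranged from 1 to 5. It was 1 without a detection filter and 1 with the brightest probe per gene, which keeps 1 of the 4 Cdk2 probes. All calls numbered 3509, and 1409 to 4585 when 1 array was left out. Against shScr1, 3 member probes passed, and 6 without background correction, 5 with detection on all 6 arrays, 6 with a variance trend and robust prior, and 0 to 7 when 1 array was left out. Against shScr2, 3 passed, and 0 to 8 when 1 array was left out. A group left with 1 array was assumed to vary like the others. The sign turned for probes that did not pass: Ccnd1 ILMN_2669793 (0.14 with a common median, 0.02 without shScr1 B, 0.00 without shScr2 A, 0.02 without mir128 B), Ccne1 (0.12 with a common median) and, without mir128 B, 4 more. With 1 array left out, the log2 change ranged from -0.15 to 0.62 for Ccnd1 ILMN_1221503, from -0.13 to 0.60 for Ccnd1 ILMN_2601471, from -0.05 to 0.02 for Ccnd1 ILMN_2669793, from -0.35 to 1.23 for Ccnd3 ILMN_1246473 and from -0.21 to 0.44 for Rb1 ILMN_2679619, with the lowest without mir128 B for all but Ccnd1 ILMN_2669793. It ranged from -0.38 to 0.00 for Cdk6, from -0.32 to -0.11 for Ccne1, from -0.98 to -0.30 for Cdk2 ILMN_1233064 and from -1.87 to -0.28 for Cdk2 ILMN_1250942. List counts, an alternative chosen after seeing the data, fell without a detection filter to 9 E2F-regulated and 2 G2/M genes lower, and on the authors' values to 10 and 3, against 14 and 6 in the main comparison. With the replicate letter as a block, 3530 probes passed in the main comparison, with 2 member probes higher and 3 lower, and 2 passed between the scrambled groups, against 11 without it. It changed 1 call among the member probes, that of Cdk2 against shScr1. Except where a value or fewer arrays show it, the cause was not tested. Signal near background limits Cdk6 and the third Ccnd3 probe.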
